A study of Caenorhabditis elegans with 15 samples.

Results

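The 26S proteasome is the protease complex that degrades ubiquitin-tagged proteins, and its subunit genes were followed through pull-downs of 2 mRNA cap-binding proteins from Caenorhabditis elegans. The genes were taken by fixed WormBase ID ranges and not by a cut on their values, though with earlier results of these data known. They number 31 of the 46934 gene IDs in the deposited table: 11 rpn, 6 rpt, 7 pas and 7 pbs genes. The rpt, pas and pbs names follow the numbering of their ID ranges. The rpn genes are given by WormBase ID or as a class, because 13 rpn symbols in the RefSeq gene table stand against 11 IDs and nothing pairs them. No sequence of these genes was available among the sources used here, so none is shown.

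The proteasome has a barrel-shaped core particle capped by regulatory particles. The core is built from stacked rings: outer rings of alpha subunits, encoded by the pas genes, form the gated entrance, and inner rings of beta subunits, encoded by the pbs genes, hold the protease sites. The regulatory particle carries a ring of ATPases, encoded by the rpt genes, which unfold substrates and thread them into the core, and non-ATPase subunits, encoded by the rpn genes, which recognise ubiquitin chains, remove them or scaffold the particle. The subunits assemble in fixed proportions, and the complex is needed in germline and soma of the worm. Proteins of the eIF4E family bind mRNA caps at the start of translation. IFE-1 and IFE-3 are eIF4E paralogs of the worm, and IFE-1 can also bind the trimethylated cap that trans-splicing places on many nematode mRNAs.

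All RNA came from whole worms of 3 strains grown for 3 days at 20 °C on bacteria and egg. IFE-1 RIP is the RNA bound to mKate::IFE-1, pulled down with RFP trap beads, and IFE-3 RIP is the RNA bound to GFP::IFE-3, pulled down with GFP trap beads. Both came from strain KX155, in which CRISPR put mKate on ife-1 (chromosome III) and GFP on ife-3 (chromosome V) of the same worms. mKate control RIP came from strain LP307 with an mKate::PH insertion on chromosome II, and GFP control RIP from strain LP306 with a GFP::PH insertion on chromosome II. Neither control strain is labelled as carrying a tagged eIF4E, and which promoters drive the PH insertions is not given in the sources used here. Total RNA came from the unenriched homogenate of KX155. Each of the 5 groups had 3 libraries labelled as biological replicates. The labelled batch (RFP pulldown, GFP pulldown or lysate) is the same for a RIP and its own control and otherwise coincides with the group, so batch and group cannot be told apart in the other comparisons.

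Values are TPM, a transcript abundance measure that corrects for transcript length and gives each library the same total. They were divided by a median-of-ratios factor for each library, and the result is called scaled TPM here. Sequencing depth is unknown because TPM does not keep it. Factors were 0.875 to 0.997 for the IFE-1 RIP libraries, 0.910 to 1.04 for the IFE-3 RIP libraries, 1.05 to 1.27 for the mKate control libraries, 1.21 to 1.36 for the GFP control libraries and 0.713 to 0.818 for total RNA. The scaling therefore raises total RNA and lowers the control RIPs relative to the deposited values. The series design states that mRNA was poorly represented in the control RIPs. Markers of worm tissues and the tagged genes ife-1 and ife-3 could not be looked up, since the table holds IDs without symbols. Fold changes are log2 differences of scaled TPM + 1, tested with limma, and a gene was called at a Benjamini-Hochberg adjusted p under 0.05 over all genes tested. The text says rose or fell only of called genes.

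All 31 proteasome genes were well above 0 in every library, the lowest deposited value being 11.4 TPM. In total RNA they stood between the 83.4th and the 96.4th percentile among 10437 genes whose mean reached 1 TPM. pbs-1, a beta subunit gene whose product carries one of the protease sites (WBcel235, chromosome IV, 1708803 to 1709745), had the highest level in total RNA, at 142.8 ± 11.5 scaled TPM (SD, n = 3). WBGene00004466, an rpn gene, had the lowest, at 20.8 ± 2.50 scaled TPM (SD, n = 3). The highest level was 6.84 times the lowest in the IFE-1 RIP, 8.01 in the IFE-3 RIP, 6.61 in the mKate control, 5.93 in the GFP control and 6.86 in total RNA. Thus genes whose products assemble in fixed proportions spanned a similar range of RNA levels in all groups.

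Ordered by their total RNA level, most neighbouring genes could not be separated. Of 30 neighbouring pairs, 3 had replicate values that did not overlap: pbs-1 over pas-6, pas-6 over pbs-6, and rpt-6 over WBGene00004466. The rank order of the levels had a Spearman rho of 0.971 between the RIPs of both paralogs, 0.879 between IFE-1 RIP and total RNA and 0.925 between IFE-3 RIP and total RNA, over the 31 genes as a description. In scaled TPM, IFE-1 RIP replicate 2 had the highest value of its group for 30 of 31 genes, GFP control RIP replicate 1 the lowest of its group for 29, mKate control RIP replicate 1 the lowest for 25, and total RNA replicate 3 the lowest for 27. On deposited TPM these counts were 11, 24, 15 and 15 in that order, so the ranking of libraries depended on the scaling. In scaled TPM the median coefficient of variation over the genes was 10.1% in the IFE-1 RIP, 7.21% in the IFE-3 RIP, 13.6% in the mKate control, 21.2% in the GFP control and 7.96% in total RNA.

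**Figure D1:**
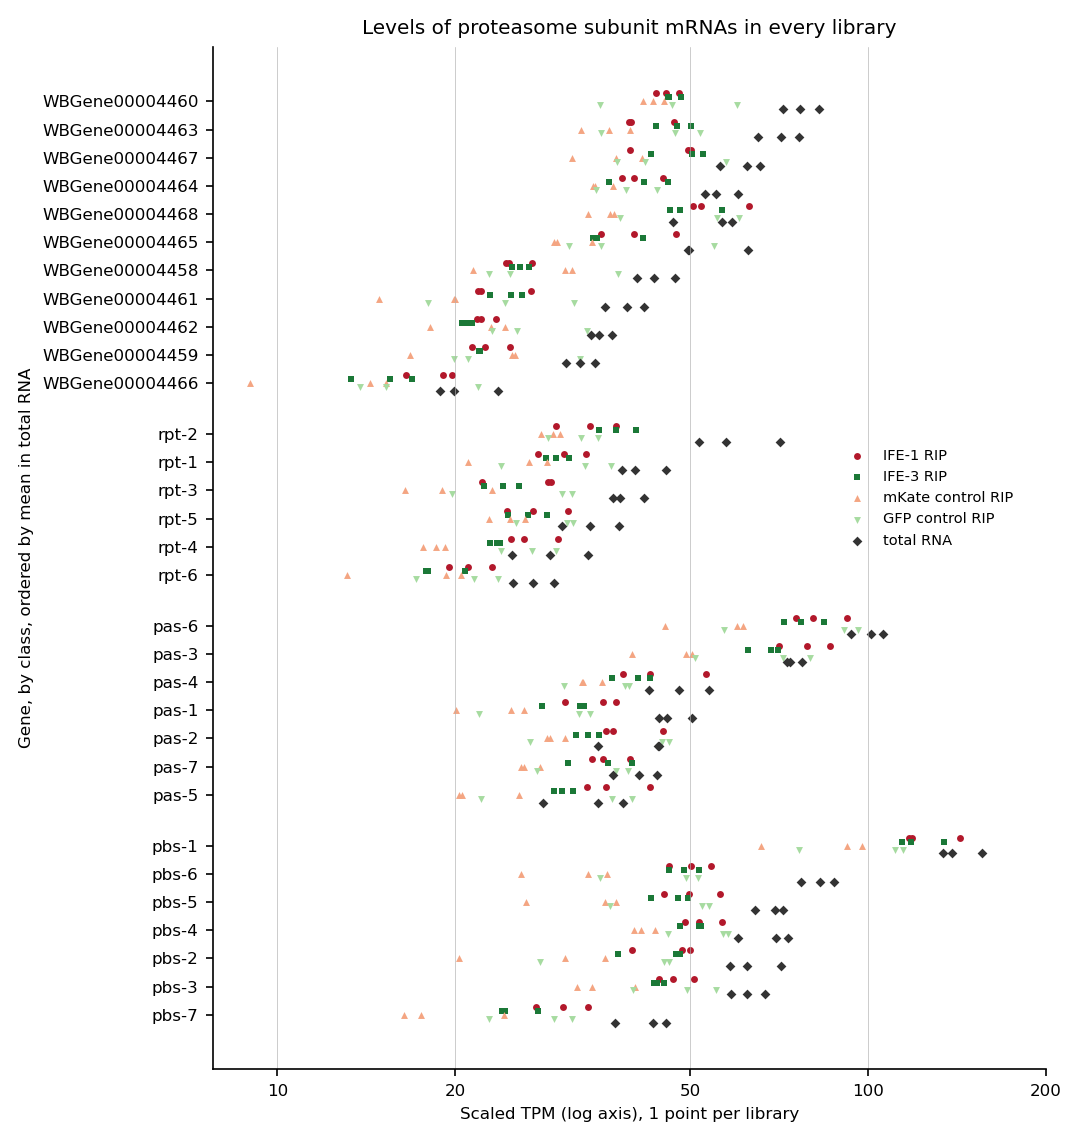
Scaled TPM (log axis) of each of the 31 proteasome genes in every library, by group, with genes arranged by class. pbs-1 sits highest and WBGene00004466 lowest in total RNA, and the replicate points of most neighbouring genes overlap.

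The first comparison asked which proteasome mRNAs IFE-1 held relative to the total RNA of the same strain. In IFE-1 RIP, 15 of the 31 genes fell below total RNA, none rose and 16 were not called. Over all 12099 genes tested by limma, 6.07% were called lower and 4.12% higher. The median log2 fold change was -0.40 over the 31 genes, against -0.01 over all genes. The IFE-1 RIP libraries lay wholly below the total RNA libraries for 21 of the 31 genes, and 19.6% of all genes did so. RNA of both groups was taken from whole worms of the same strain, so the cell types behind a difference cannot be told apart.

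The rpn class had 7 of 11 genes that fell in IFE-1 RIP, with log2 fold changes of -0.76 to -0.44, and a class median of -0.50. Among them, WBGene00004463 had a log2 fold change of -0.74 (SE 0.11, adjusted p = 0.00733 by limma). Its call held in all 18 alternative settings, as did that of WBGene00004460. WBGene00004458 had 24.7, 27.0 and 24.4 scaled TPM in IFE-1 RIP, against 47.1, 43.4 and 40.6 scaled TPM in total RNA. The groups were far apart, a log2 fold change of -0.76 (SE 0.10, adjusted p = 0.00375 by limma). WBGene00004460, the rpn gene with the highest level in total RNA, had 45.6, 47.8 and 43.8 scaled TPM in IFE-1 RIP, against 76.6, 82.4 and 71.8 scaled TPM in total RNA, a fall of similar size (log2 fold change -0.74, SE 0.09, adjusted p = 0.00395 by limma). WBGene00004466 had 19.1, 19.8 and 16.5 scaled TPM in IFE-1 RIP, against 23.6, 19.9 and 18.9 scaled TPM in total RNA, and these overlapped (log2 fold change -0.16, adjusted p = 0.473 by limma). WBGene00004468, named here after its values were seen, had 50.6, 62.9 and 52.2 scaled TPM in IFE-1 RIP, against 56.6, 58.9 and 46.7 scaled TPM in total RNA, and these overlapped too (log2 fold change 0.03, adjusted p = 0.931 by limma).

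Of the rpt genes, which encode the ATPase ring, 3 of 6 fell in IFE-1 RIP: rpt-1, rpt-2 and rpt-3. The class median was -0.39. rpt-2, whose yeast counterpart helps to open the gate of the core particle (chromosome V, 6016049 to 6017669), had 33.9, 37.5 and 29.6 scaled TPM in IFE-1 RIP, against 57.5, 71.0 and 51.7 scaled TPM in total RNA. This was the lowest fold change of the 31 genes in this comparison, at -0.81 (SE 0.14, adjusted p = 0.0114 by limma). rpt-3, another ATPase gene (chromosome III, 6489793 to 6491282), had 22.2, 29.0 and 28.8 scaled TPM in IFE-1 RIP, against 41.7, 38.0 and 37.0 scaled TPM in total RNA (log2 fold change -0.54, SE 0.12, adjusted p = 0.0277 by limma). rpt-6, the lowest of the class, had 21.0, 23.1 and 19.5 scaled TPM in IFE-1 RIP, against 29.4, 25.1 and 27.1 scaled TPM in total RNA. Its groups did not overlap, but the difference missed the threshold (log2 fold change -0.34, adjusted p = 0.0820 by limma). The rpt-3 call was lost in 8 of 18 alternative settings, while the rpt-2 call held in all 18.

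Of the pas genes, which encode the alpha ring, 1 of 7 fell in IFE-1 RIP, and the class median was -0.11. The gene was pas-1 (chromosome V, 14421566 to 14422618), with 30.7, 37.5 and 35.6 scaled TPM in IFE-1 RIP, against 45.7, 50.4 and 44.2 scaled TPM in total RNA (log2 fold change -0.43, SE 0.11, adjusted p = 0.0491 by limma). That call lay at the threshold and was lost in 12 of 18 alternative settings. pas-6, the alpha subunit gene with the highest level, had 75.4, 92.0 and 80.6 scaled TPM in IFE-1 RIP, against 101, 106 and 93.5 scaled TPM in total RNA (log2 fold change -0.28, adjusted p = 0.166 by limma). pas-5, the lowest of the class in total RNA (chromosome I, 10566350 to 10567300), had 33.4, 42.7 and 36.1 scaled TPM in IFE-1 RIP, against 34.9, 38.4 and 28.2 scaled TPM in total RNA. Those libraries overlapped, and the log2 fold change was 0.14 (adjusted p = 0.570 by limma). On the deposited TPM without scaling, the pas-5 difference was 0.42 (adjusted p = 0.0405 by limma), the only call of a higher level among the 31 genes in any setting of this comparison.

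Of the pbs genes, which encode the beta rings, 4 of 7 fell in IFE-1 RIP: pbs-3, pbs-5, pbs-6 and pbs-7. The class median was -0.44. pbs-6, a beta subunit gene without a protease site in the mature core (chromosome III, 8243122 to 8244092), had 46.1, 50.2 and 54.1 scaled TPM in IFE-1 RIP, against 83.1, 87.6 and 76.8 scaled TPM in total RNA. The groups were widely separated (log2 fold change -0.71, SE 0.10, adjusted p = 0.00597 by limma). pbs-5, which encodes the subunit with chymotrypsin-like activity (chromosome I, 14719167 to 14720477), had 45.2, 56.2 and 49.8 scaled TPM in IFE-1 RIP, against 71.7, 69.5 and 64.4 scaled TPM in total RNA (log2 fold change -0.44, SE 0.11, adjusted p = 0.0421 by limma). pbs-7, a structural beta subunit gene (chromosome I, 8695205 to 8696301), had 27.4, 33.5 and 30.4 scaled TPM in IFE-1 RIP, against 43.2, 45.4 and 37.3 scaled TPM in total RNA (log2 fold change -0.45, SE 0.12, adjusted p = 0.0451 by limma). The calls of pbs-5 and pbs-7 were each lost in 11 of 18 alternative settings, and that of pbs-6 in 2. pbs-1, the most abundant member, had 118.7, 143 and 117 scaled TPM in IFE-1 RIP, against 139, 156 and 134 scaled TPM in total RNA, and these overlapped (log2 fold change -0.18, adjusted p = 0.405 by limma).

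The count of 15 depended on the scaling and on single libraries. On deposited TPM, on which the median of all genes moved to 0.21, 5 genes fell and 1 rose, where 1.26% of all genes were lower and 9.36% higher. The median over the 31 genes was -0.12, and 27 of the 31 lay below the all-gene median. Leaving out 1 library at a time left 7 to 11 calls: 8 without IFE-1 RIP replicate 1, 9 without its replicate 3, 7 without total RNA replicate 1, 8 without its replicate 2 and 9 without its replicate 3. The calls over all genes dropped too, with 2.26% to 4.49% called lower in those fits, against 6.07% with every library.

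**Figure D2:**
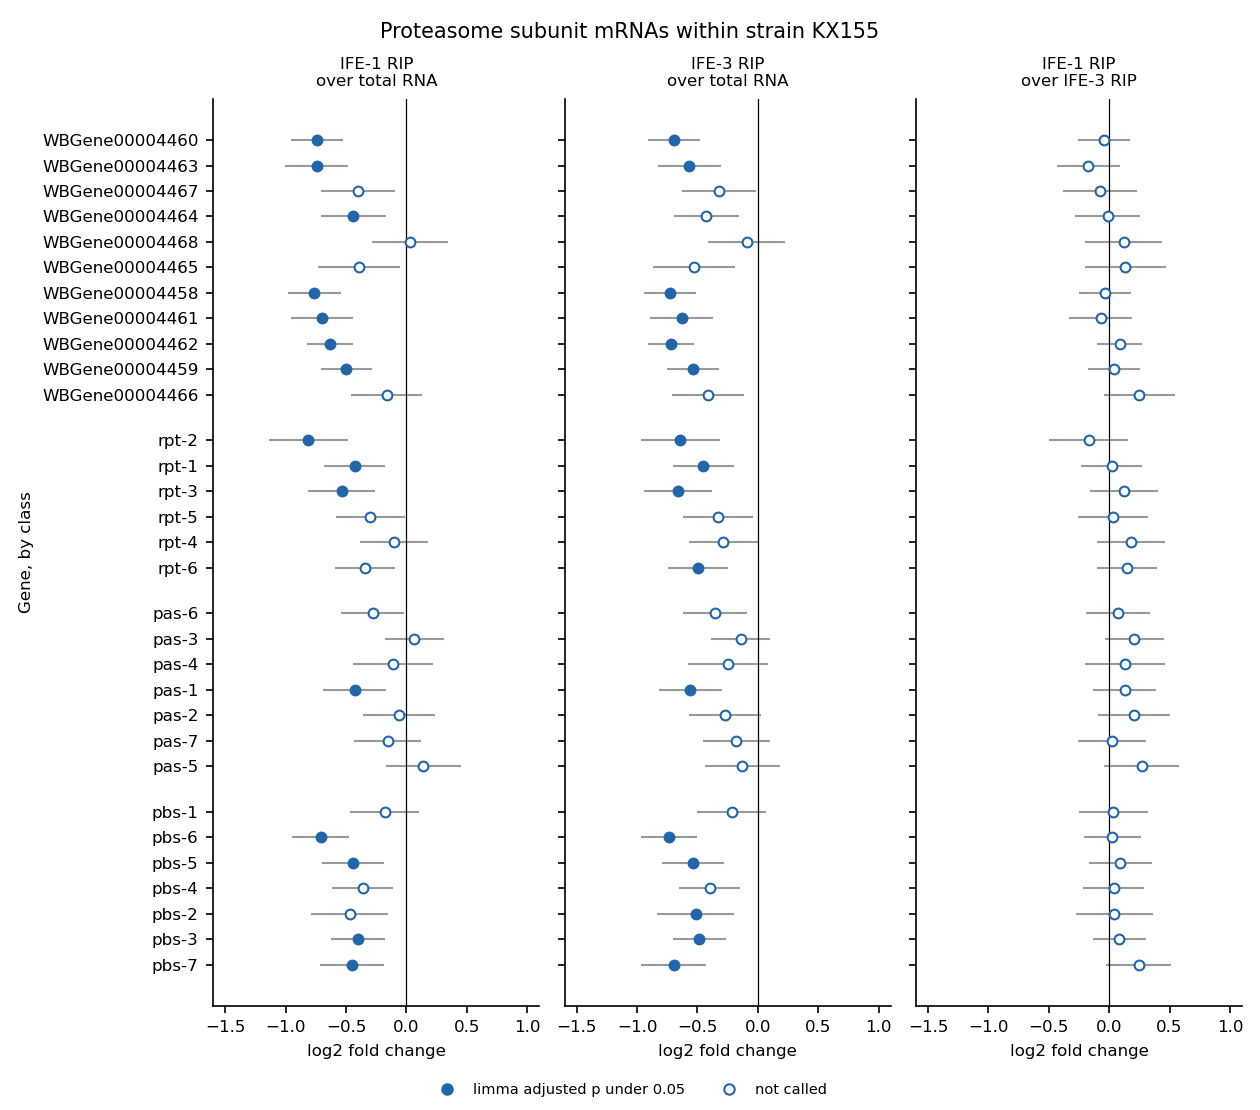
Log2 fold changes with 95% confidence intervals (limma) of the 31 proteasome genes in IFE-1 RIP over total RNA, IFE-3 RIP over total RNA and IFE-1 RIP over IFE-3 RIP. Most genes lie below 0 against total RNA, with rpt-2 lowest in IFE-1 RIP at -0.81, and every interval between both RIPs includes 0.

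The same question was asked of IFE-3, against the same total RNA libraries, which both comparisons therefore share. In IFE-3 RIP, 16 of the 31 genes fell below total RNA and none rose. Over all 12099 genes tested by limma, 5.63% were called lower and 5.58% higher. The median log2 fold change was -0.48 over the 31 genes, against 0.03 over all genes. The IFE-3 RIP libraries lay wholly below total RNA for 25 genes, as did 15.1% of all genes. Fallen genes numbered 6 of 11 rpn, 4 of 6 rpt, 1 of 7 pas and 5 of 7 pbs genes, with class medians of -0.54, -0.47, -0.24 and -0.51 in that order.

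Among the rpn genes, WBGene00004458 had 25.0, 26.6 and 25.8 scaled TPM in IFE-3 RIP, against 47.1, 43.4 and 40.6 scaled TPM in total RNA (log2 fold change -0.73, SE 0.10, adjusted p = 0.00563 by limma). WBGene00004460 had 48.3, 45.8 and 46.1 scaled TPM in IFE-3 RIP, against 76.6, 82.4 and 71.8 scaled TPM in total RNA (log2 fold change -0.70, SE 0.09, adjusted p = 0.00619 by limma). In both genes the IFE-3 RIP replicates were close together and far from total RNA. WBGene00004462 had the smallest adjusted p of the 31 genes (log2 fold change -0.72, SE 0.08, adjusted p = 0.00359 by limma). Its call held in all 18 alternative settings. WBGene00004466 had 15.5, 16.9 and 13.3 scaled TPM in IFE-3 RIP, all below the 23.6, 19.9 and 18.9 scaled TPM of total RNA, but was not called (log2 fold change -0.41, adjusted p = 0.0775 by limma).

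The rpt genes that fell in IFE-3 RIP were rpt-1, rpt-2, rpt-3 and rpt-6. rpt-2 had 37.4, 40.4 and 35.0 scaled TPM in IFE-3 RIP, against 57.5, 71.0 and 51.7 scaled TPM in total RNA (log2 fold change -0.64, SE 0.14, adjusted p = 0.0270 by limma). rpt-3 had 22.4, 24.1 and 25.7 scaled TPM in IFE-3 RIP, against 41.7, 38.0 and 37.0 scaled TPM in total RNA (log2 fold change -0.66, SE 0.12, adjusted p = 0.0152 by limma). For both ATPase genes every IFE-3 RIP library was below every total RNA library. rpt-6 (chromosome III, 12370456 to 12372608) had 20.8, 17.96 and 17.8 scaled TPM in IFE-3 RIP, against 29.4, 25.1 and 27.1 scaled TPM in total RNA (log2 fold change -0.49, SE 0.11, adjusted p = 0.0263 by limma). rpt-4, named after its values were seen, was the member of the ring nearest to total RNA, with 23.8, 23.5 and 22.9 scaled TPM in IFE-3 RIP, against 33.5, 29.0 and 24.9 scaled TPM in total RNA (log2 fold change -0.28, adjusted p = 0.183 by limma).

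pas-1 was again the alpha subunit gene that fell, with 28.1, 32.5 and 33.1 scaled TPM in IFE-3 RIP, against 45.7, 50.4 and 44.2 scaled TPM in total RNA (log2 fold change -0.56, SE 0.11, adjusted p = 0.0204 by limma). The other 6 pas genes were negative but not called. pas-6 (chromosome V, 5583161 to 5584343) had 72.1, 84.3 and 77.1 scaled TPM in IFE-3 RIP, against 101, 106 and 93.5 scaled TPM in total RNA (log2 fold change -0.35, adjusted p = 0.0871 by limma). pas-5 had 30.4, 31.6 and 29.4 scaled TPM in IFE-3 RIP, against 34.9, 38.4 and 28.2 scaled TPM in total RNA, and these overlapped (log2 fold change -0.13, adjusted p = 0.607 by limma).

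The pbs genes that fell in IFE-3 RIP were pbs-2, pbs-3, pbs-5, pbs-6 and pbs-7. pbs-6 had 46.0, 48.8 and 51.7 scaled TPM in IFE-3 RIP, against 83.1, 87.6 and 76.8 scaled TPM in total RNA (log2 fold change -0.73, SE 0.10, adjusted p = 0.00669 by limma), and its call held in all 18 alternative settings. pbs-5 had 42.9, 49.5 and 47.7 scaled TPM in IFE-3 RIP, against 71.7, 69.5 and 64.4 scaled TPM in total RNA (log2 fold change -0.54, SE 0.11, adjusted p = 0.0226 by limma). pbs-7 had 24.0, 24.3 and 27.6 scaled TPM in IFE-3 RIP, against 43.2, 45.4 and 37.3 scaled TPM in total RNA (log2 fold change -0.70, SE 0.12, adjusted p = 0.0112 by limma). These beta subunit genes were separated from total RNA in every library. The pbs-5 call was lost in 7 of the 18 alternative settings and the pbs-7 call in 5. pbs-1 had 118, 134 and 114 scaled TPM in IFE-3 RIP, against 139, 156 and 134 scaled TPM in total RNA, with 1 IFE-3 RIP library at the lower edge of total RNA (log2 fold change -0.21, adjusted p = 0.318 by limma).

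Here too the count depended on scaling and library. On deposited TPM, where the all-gene median was 0.27, 5 genes fell, as did 1.31% of all genes, the median over the 31 genes was -0.16 and all 31 lay below the all-gene median. Without 1 library at a time, 4 to 13 genes were called, with 10 left without IFE-3 RIP replicate 1 and 6 without total RNA replicate 2. Only 4 were left without IFE-3 RIP replicate 2 and likewise without total RNA replicate 1, and in both cases these were WBGene00004458, WBGene00004460, pbs-6 and 1 further rpn gene. Over all genes, 1.52% and 1.65% were called lower in those fits. Across all fits without 1 library the share was 1.52% to 5.09%, against 5.63% with every library.

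IFE-1 RIP and IFE-3 RIP were compared directly to see whether the paralogs, tagged in the same worms, differed in the proteasome mRNAs they held. None of the 31 genes was called, and none reached an unadjusted p under 0.05 by limma, a level reached by 3.31% of all genes as higher and 13.3% as lower. After adjustment 1.52% of all genes were called. The log2 differences ran from -0.17 to 0.27 with a median of 0.07, and the smallest adjusted p was 0.350. The 95% confidence intervals of single genes reached from -0.50 at the lowest to 0.58 at the highest, so true differences up to these limits were not excluded for those genes. The largest difference was that of pas-5, with 33.4, 42.7 and 36.1 scaled TPM in IFE-1 RIP, against 30.4, 31.6 and 29.4 scaled TPM in IFE-3 RIP. pbs-7 had 27.4, 33.5 and 30.4 scaled TPM in IFE-1 RIP, against 24.0, 24.3 and 27.6 scaled TPM in IFE-3 RIP, with overlap but a difference of 0.25. With libraries weighted by their quality, pbs-7 was the single call (0.31, SE 0.09, adjusted p = 0.0385 by limma), in a fit that called 4.78% of all genes higher. Fitted with the replicate number as a block, no proteasome gene was called either.

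The balance of the classes can be read without any scaling, as a ratio of summed TPM within a library. The sum of the 7 pas genes over that of the 11 rpn genes was 0.880, 0.939 and 0.941 in the IFE-1 RIP, 0.822, 0.831 and 0.848 in the IFE-3 RIP, 0.753, 0.732 and 0.733 in the mKate control, 0.758, 0.744 and 0.981 in the GFP control, and 0.709, 0.709 and 0.703 in total RNA. Every pull-down library was above every total RNA library in this ratio, the controls included, and GFP control RIP replicate 3 was the highest of all. The ratio of pas to pbs genes averaged 0.877 ± 0.029 in the IFE-1 RIP, 0.827 ± 0.033 in the IFE-3 RIP, 0.869 ± 0.078 in the mKate control, 0.881 ± 0.042 in the GFP control and 0.727 ± 0.010 in total RNA (SD, n = 3 each). Alpha subunit RNA thus made up more of the proteasome RNA in all 4 kinds of pull-down than in total RNA. The ratio of rpt to rpn genes, both of the regulatory particle, averaged 0.433 ± 0.008 in the IFE-1 RIP, 0.423 ± 0.012 in the IFE-3 RIP, 0.419 ± 0.021 in the mKate control, 0.434 ± 0.046 in the GFP control and 0.424 ± 0.020 in total RNA, differing by less than the spread between replicates. The ratios are descriptions without a test.

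**Figure D3:**
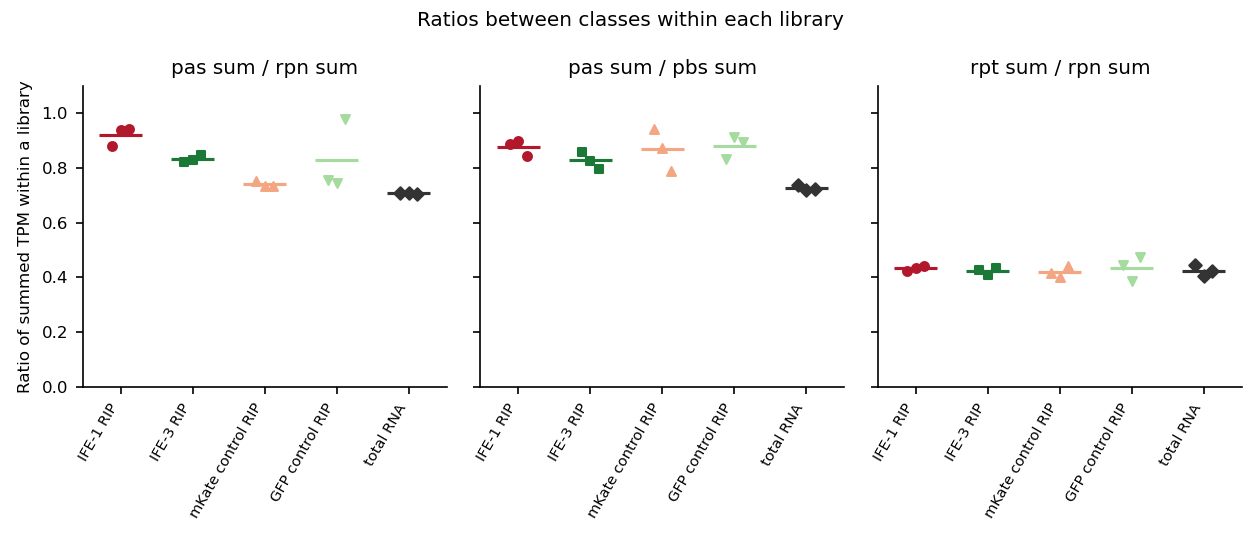
Ratios of summed TPM between proteasome gene classes in each of the 15 libraries, by group, on linear axes. The pas over rpn ratio is 0.703 to 0.709 in total RNA and higher in every pull-down library, while rpt over rpn overlaps across groups.

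Genomic spans could be read for the 20 genes with names, and for none of the rpn genes. They were 939 to 1270 bases for pas, 943 to 1311 for pbs and 1490 to 4010 for rpt genes (RefSeq, WBcel235). Of the 20 genes, 8 lie on chromosome I, 3 on II, 3 on III, 1 on IV and 5 on V. Spearman's rho between span and log2 fold change over these 20 genes was -0.26 for IFE-1 RIP over total RNA, -0.29 for IFE-3 RIP over total RNA and -0.55 for IFE-1 RIP over mKate control RIP, as a description over genes of the same libraries. It was -0.16 for IFE-1 RIP over IFE-3 RIP and -0.32 for IFE-3 RIP over GFP control RIP. For the mKate and GFP control RIPs over total RNA it was 0.07 and -0.09. Every rpt span was longer than every pas and pbs span, so span and class were not separate here. The part of gene length in the fold changes was not tested.

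Each RIP was next set against the pull-down of its own tag without an eIF4E, a background from another strain. In IFE-1 RIP over mKate control RIP, fitted without pairs, no proteasome gene was called by limma, and 0.474% of all 12238 genes were. A fit with the replicate number as a block, given below, called some of the proteasome genes higher. Unadjusted, 19 of the 31 genes were higher at p under 0.05, as were 14.9% of all genes. The differences were positive for 30 genes on this scaling, and the IFE-1 RIP libraries lay wholly above the control for 22, against 16.7% of all genes. The class medians were 0.22 for rpn, 0.27 for rpt, 0.54 for pas and 0.60 for pbs genes. The core particle classes stood higher than the regulatory ones, a description of class medians without a test.

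pas-5 had 33.4, 42.7 and 36.1 scaled TPM in IFE-1 RIP, against 20.5, 25.6 and 20.3 scaled TPM in mKate control RIP (log2 fold change 0.73, SE 0.16, adjusted p = 0.0722 by limma). pas-3, whose yeast counterpart has the tail that closes the gate, is named after its values were seen, and had 78.7, 86.3 and 70.6 scaled TPM in IFE-1 RIP, against 39.8, 49.2 and 50.4 scaled TPM in mKate control RIP (log2 fold change 0.75, SE 0.16, adjusted p = 0.0708 by limma). Both alpha subunit genes were apart in every library yet short of the threshold. pbs-6 had 46.1, 50.2 and 54.1 scaled TPM in IFE-1 RIP, against 25.9, 33.6 and 36.1 scaled TPM in mKate control RIP (log2 fold change 0.65, adjusted p = 0.0918 by limma). WBGene00004458 had 24.7, 27.0 and 24.4 scaled TPM in IFE-1 RIP, against 21.5, 30.6 and 31.5 scaled TPM in mKate control RIP, and was the gene whose difference was negative (log2 fold change -0.11, adjusted p = 0.704 by limma).

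Same-numbered libraries deviated together in this comparison, and once the replicate number was fitted as a block, 9 genes rose in IFE-1 RIP by limma: WBGene00004468, rpt-4, pas-1, pas-3, pas-5, pas-6, pbs-2, pbs-5 and pbs-6. Over all genes, 8.55% were called higher in that fit. Without mKate control RIP replicate 3, the fit without a block called 3 genes higher, pas-3, pbs-6 and pbs-7, and 7.99% of all genes. On deposited TPM, where the all-gene median was -0.20, the median over the 31 genes was 0.13 instead of 0.40 and 22 differences were positive. After quantile normalization, where the all-gene median was -0.04, it was 0.10 with 21 positive. The rpn median was -0.05 on deposited TPM and -0.10 after quantile normalization, so the sign of that class depended on the scaling, while the pas median (0.27 and 0.16) and the pbs median (0.33 and 0.27) were positive on both.

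In IFE-3 RIP over GFP control RIP, no proteasome gene was called by limma while 0.0898% of all 12249 genes were. None reached an unadjusted p under 0.05, which 9.11% of all genes did as higher and 3.41% as lower. The differences ran from -0.35 to 0.30 with a median of -0.02. pbs-6 had 46.0, 48.8 and 51.7 scaled TPM in IFE-3 RIP, against 35.1, 49.2 and 51.6 scaled TPM in GFP control RIP, and rpt-2 had 37.4, 40.4 and 35.0 scaled TPM in IFE-3 RIP, against 28.7, 34.9 and 32.6 scaled TPM in GFP control RIP. The GFP control libraries varied most of all groups, with replicate 1 lowest for 29 genes in scaled TPM and for 24 as deposited. On deposited TPM all 31 differences were negative with a median of -0.40, where the all-gene median was -0.29. With the paralogs compared net of their tag controls in a fit of 12 libraries, an analysis added after the data were seen, no proteasome gene was called by limma and 45 of 14114 genes were. The differences ran from -0.02 to 0.80, and the smallest adjusted p was 0.128, for rpt-4. All were positive except those of rpt-2 (-0.02) and WBGene00004458 (-0.006). The all-gene median of that fit is not given here, so a shift of all genes cannot be told apart from one of these genes.

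**Figure D4:**
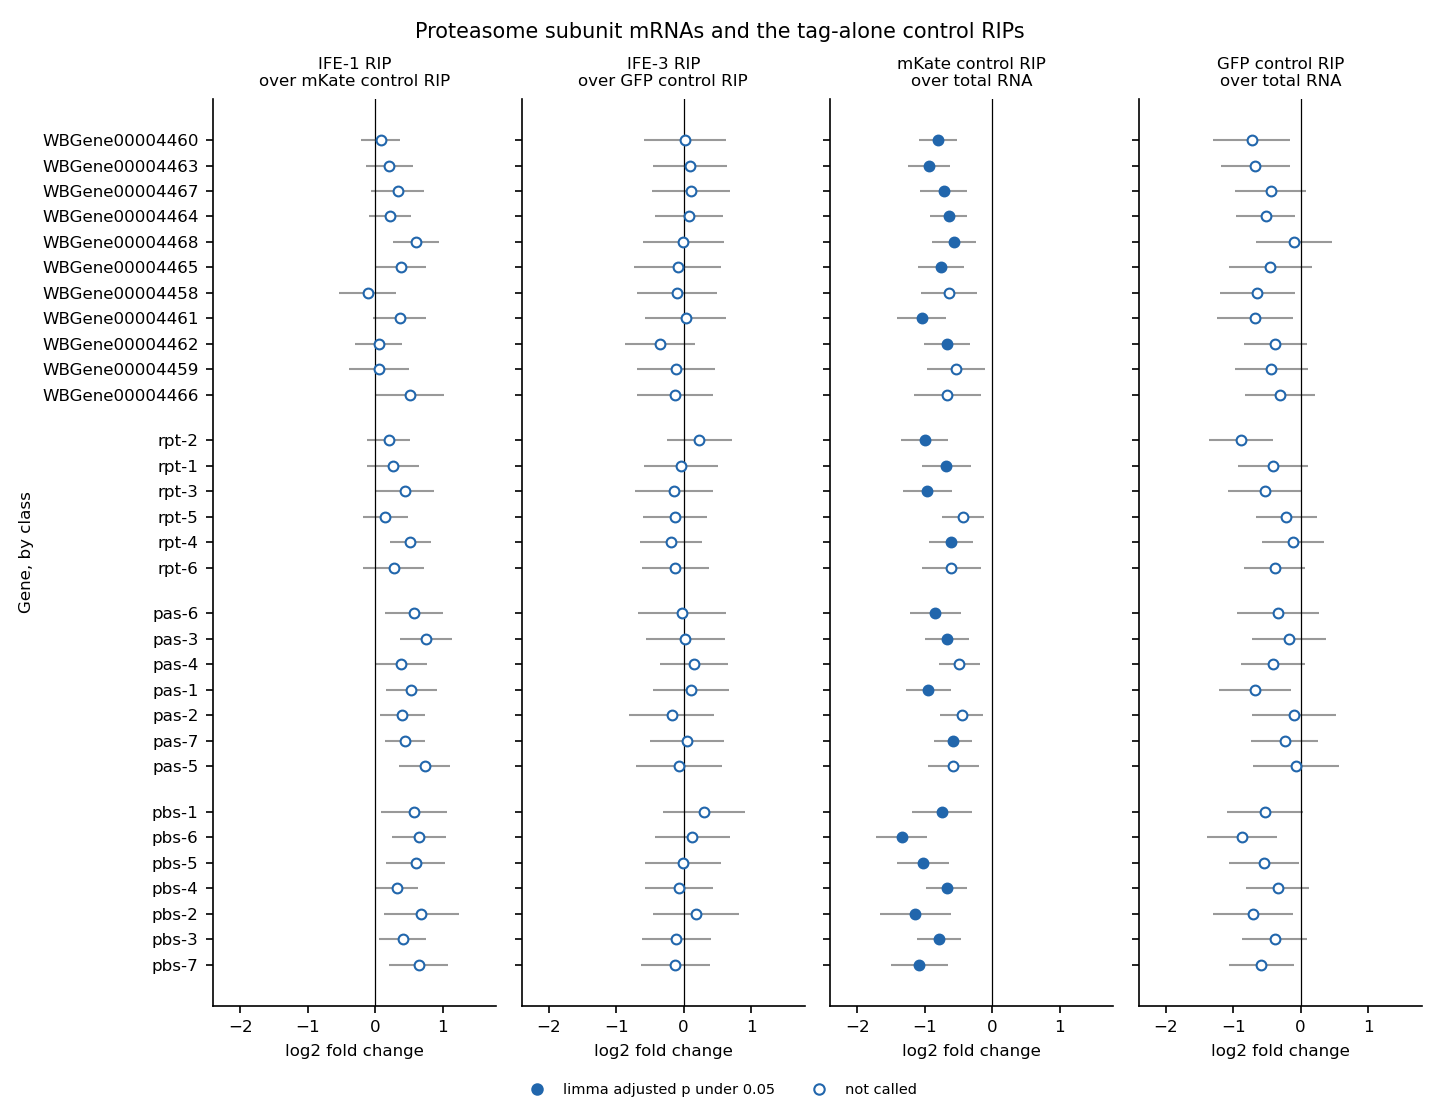
Log2 fold changes with 95% confidence intervals (limma) of the 31 proteasome genes in the 4 comparisons with a control RIP: IFE-1 RIP over mKate control RIP, IFE-3 RIP over GFP control RIP, and both control RIPs over total RNA. In mKate control RIP over total RNA the pbs class has the lowest median, -1.02, with all 7 genes called, while single rpn, rpt and pas genes lie below some pbs genes.

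The control pull-downs themselves were compared with total RNA as the background of the same assay without an eIF4E. The controls came from strains LP307 and LP306 and the total RNA from KX155. Effects of strain and of the pull-down therefore cannot be told apart in these comparisons. In mKate control RIP, 23 of the 31 genes fell below total RNA by limma, and 8.13% of all 11483 genes were called lower. Every mKate control library was below every total RNA library for all 31 genes, as for 21.4% of all genes. All 7 pbs, 8 of 11 rpn, 4 of 6 rpt and 4 of 7 pas genes fell, with class medians of -1.02, -0.67, -0.64 and -0.58 in that order. pbs-6 had 25.9, 33.6 and 36.1 scaled TPM in mKate control RIP, against 83.1, 87.6 and 76.8 scaled TPM in total RNA (log2 fold change -1.34, SE 0.16, adjusted p = 0.0112 by limma). rpt-2 had 28.0, 30.0 and 29.3 scaled TPM in mKate control RIP, against 57.5, 71.0 and 51.7 scaled TPM in total RNA (log2 fold change -0.996, SE 0.15, adjusted p = 0.0155 by limma).

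These calls depended on single libraries, as did the calls over all genes. Without mKate control RIP replicate 2, or without total RNA replicate 1, none of the 31 was called. Over all genes, 0.00936% and 0.373% were called lower in those fits, against 8.13% with every library. Without total RNA replicate 2 the call was pbs-6 alone, where 0.424% of all genes were called lower. Without total RNA replicate 3 the 4 calls were rpt-2, pbs-6, WBGene00004461 and WBGene00004463, where 1.30% of all genes were called lower. On deposited TPM, where the all-gene median was 0.42, 9 genes fell, as did 2.20% of all genes, with a median over the 31 genes of -0.15.

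In GFP control RIP over total RNA no proteasome gene was called by limma, and 0.835% of all 11615 genes were. All 31 log2 fold changes were negative with a median of -0.43, 11 genes were lower at an unadjusted p under 0.05, against 9.54% of all genes, and 19 lay wholly below total RNA, against 13.6% of all genes. rpt-2 had 28.7, 34.9 and 32.6 scaled TPM in GFP control RIP, against 57.5, 71.0 and 51.7 scaled TPM in total RNA, which did not overlap (log2 fold change -0.88, adjusted p = 0.116 by limma). The sign of this comparison depended on the scaling, since on deposited TPM 27 of the 31 differences were positive with a median of 0.26, below the all-gene median of 0.55.

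Summed over all 31 genes, proteasome RNA came to 1307 ± 117 scaled TPM in the IFE-1 RIP, 1238 ± 55.2 in the IFE-3 RIP, 969 ± 105 in the mKate control, 1242 ± 240 in the GFP control and 1691 ± 118 in total RNA (SD, n = 3 each). Total RNA was the highest group on this scale, and both eIF4E pull-downs lay within the range set by the control pull-downs and total RNA. As deposited, the sums were 1238 ± 22.5 TPM in the IFE-1 RIP, 1218 ± 30.8 in the IFE-3 RIP, 1109 ± 42.5 in the mKate control, 1579 ± 247 in the GFP control and 1314 ± 65.0 in total RNA (SD, n = 3 each). GFP control RIP was then the highest group in the mean. On both scales IFE-1 RIP and IFE-3 RIP averaged below total RNA, and mKate control RIP was the lowest group.

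**Figure D5:**
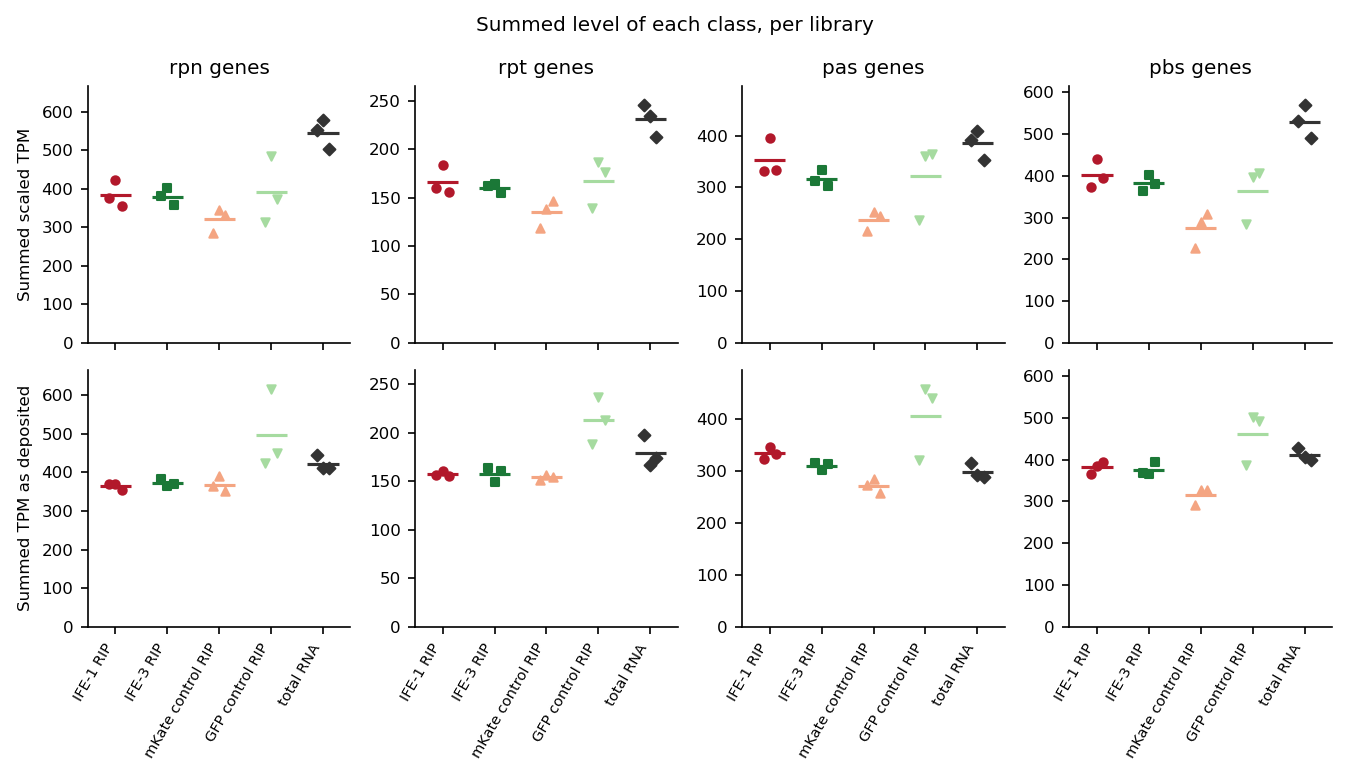
Summed TPM of the rpn, rpt, pas and pbs genes in each of the 15 libraries, with group means, scaled (top) and as deposited (bottom). Total RNA has the highest mean sum in every class on scaled TPM, and GFP control RIP has it as deposited. The replicates of GFP control RIP spread most.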

How the data were processed

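The authors deposited TPM per gene for 15 libraries. Build WBcel235, R 4.4.1, kallisto 0.48.0 and DESeq2 1.34.0 stand in the submitters' processing notes without roles; libraries were rRNA-depleted and non-directional per the labels' protocols, so antisense overlaps cannot be separated. TPM fixes each library's sum, so depth is unknown and no counting interval was given.

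TPM was divided by median-of-ratios factors, and genes reaching 1 TPM in 3 or more libraries of a fit were tested on log2(scaled TPM + 1), which understates changes of low genes, with limma 3.58.1 in R 4.3.3 (lmFit, eBayes with trend, two-sided), checked on simulated data. A single fit held the 9 KX155 libraries, and the 4 comparisons with a control RIP used 6 libraries each. Members and lists were chosen with earlier results of these data known. Genes chosen to be named were the 12 with the smallest adjusted p among called members, and the highest and lowest of each class in total RNA. Among the 12, library values of WBGene00004459, WBGene00004461, WBGene00004462 and WBGene00004463 are not printed, and of the other rpn IDs few were. Lists of other ubiquitin genes and tissue markers could not be applied: 0 IDs matched among the 46926 genes of the RefSeq table.

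Replicate numbers were checked as pairs by correlating deviations from group means. Same-numbered libraries had correlations of 0.120 to 0.276 for the IFE-1 with the IFE-3 RIP, 0.115 to 0.270 for the IFE-1 RIP with its mKate control and 0.139 to 0.217 for the IFE-3 RIP with its GFP control. They were taken as pairs there, from the data, since the labels state no pairing. Alternatives covered the pseudocount, filter, scaling, trend, library weights, libraries in the fit, replicate block and each library left out.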

Additional observations from a re-analysis of the deposited data

How the results depend on the processing

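Counts of called proteasome genes moved with the setting, and for none of the named genes did a called direction reverse. In IFE-1 RIP over total RNA the 15 calls became 6 on deposited TPM, 3 with all 15 libraries in the fit, 8 with only the 6 libraries, 8 with the replicate block and 6 libraries, and 7 to 11 without 1 library, where 2.26% to 4.49% of all genes were called lower. In IFE-3 RIP over total RNA the 16 calls became 5 on deposited TPM, 3 with all 15 libraries, 7 with the replicate block and 6 libraries, and 4 to 13 without 1 library, where 1.52% to 5.09% were. With the replicate block in the fit of 9 libraries these counts were 19 and 22, where 10.2% and 8.65% of all genes were called lower. Replicate numbers were not taken as pairs in these comparisons, where same-numbered libraries correlated more weakly, by 0.0243 to 0.0801 and 0.0487 to 0.0947. Libraries of unlike number reached 0.0438 and 0.00706 in that order. Pairing was therefore not excluded for IFE-3 RIP over total RNA, where every same-numbered correlation was above every other. For the fits of all 15 libraries, and of only 6 KX155 libraries, the share of all genes is not given here. IFE-1 RIP over IFE-3 RIP had 1 call with library weights and 0 with the block. IFE-1 RIP over mKate control RIP had 0 calls, 12 higher with library weights, where 12.97% of all genes were called higher, 9 with the replicate block and 0 to 3 without 1 library. mKate control RIP over total RNA had 23 calls, 9 on deposited TPM, 9 after quantile normalization, 8 with the replicate block and 0 to 27 without 1 library, where 0.00936% to 16.1% of all genes were called lower. Of all 11483 genes, 628 were called lower after quantile normalization and 2.89% with the replicate block. GFP control RIP over total RNA had 0 calls, 3 lower with library weights (rpt-2, pas-1 and pbs-6), where 3.40% of all genes were, and 6 with all 15 libraries. IFE-3 RIP over GFP control RIP had 0 calls in every setting run. Summed scaled TPM without pbs-1 was 1181 for the IFE-1 RIP, 1116 for the IFE-3 RIP and 1548 for total RNA, and the deposited TPM of all 31 genes, pbs-1 included, summed to 1109 for the mKate control, 1579 for the GFP control and 1314 for total RNA. The causes were not tested. Depth is unknown, and 3 libraries a group limit the precision.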
